A study of Mus musculus with 22 samples.

Results

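The genes described here were 10 components of the circadian clock, Per1, Per2, Per3, Clock, Cry1, Cry2, Dbp, Nr1d1, Nr1d2 and Ciart, chosen by name out of the 23037 genes to which the transcripts of the count table could be matched. All 10 were found and all 10 passed the filter on low counts in every brain region. Their RNA was followed in the hippocampus, cortex and cerebellum of 8 mice by CelSeq2, a 3′ RNA-seq method that counts reads at the ends of polyadenylated transcripts. The mice were either wild-type (WT) or homozygous for a CRISPR-Cas9 edit of the splice acceptor used to form circTulp4, a circular RNA of the Tulp4 gene; the latter are the circTulp4-deficient (CD) mice. The edit changes the acceptor AG to TC and a base of the PAM beside it. The line goes back to a single mosaic founder, was kept on a C57BL/6 background and retains some circTulp4, and all animals were kept under a regular light-dark schedule. The sex and age of these mice and the time of day at which the tissue was taken are not given in the sources used here, which limits what a clock gene level can be compared with.

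The 22 libraries comprised 3 WT hippocampi (mice m162, m240 and m244), 4 CD hippocampi (mice m118, m138, m190 and m242), 4 WT cortices (mice m162, m164, m240 and m244), 4 CD cortices (mice m118, m138, m190 and m242), 4 WT cerebella (mice m162, m164, m240 and m244) and 3 CD cerebella (mice m118, m190 and m242). They held 2760846 to 8858937 counts each. Levels are given as cpm, which are counts scaled to a common library size, after TMM normalisation over all libraries unless stated otherwise. The Tulp4 transcript measure and the haemoglobin sums of this paragraph are without TMM scaling. The marker genes of each region were highest in that region: cerebellar markers summed to 5941 to 6643 cpm in the cerebellum and to at most 74.0 cpm elsewhere, cortical markers to 649 to 790 cpm in the cortex, and hippocampal markers to 1168 to 1587 cpm in the hippocampus. In the hippocampus, markers of the choroid plexus summed to between 397 and 10021 cpm, highest in WT mouse m244 and next in CD mouse m190. The counts on the Tulp4 transcript that begins inside circTulp4, taken above those on a Tulp4 transcript that skips it, came to 2.71 to 3.69 cpm in the WT hippocampi and to 0.42 to 0.57 cpm in 3 CD hippocampi, but to 3.97 cpm (16 counts) in the hippocampus library labelled CD of mouse m118. In the cortex the same measure was 1.45 to 6.02 cpm in WT and 0.14 to 1.29 cpm in CD mice, and in the cerebellum 3.12 to 13.6 cpm and 0.60 to 2.61 cpm. Tulp4 as a whole had a log2 fold change of CD over WT of -0.54 ± 0.26 (hippocampus), -1.01 ± 0.25 (cortex) and -0.48 ± 0.30 (cerebellum), none of which passed the test (edgeR FDR = 0.997, 0.9998 and 0.981). Haemoglobin transcripts, which set mouse m118 apart, summed to 12869 cpm in that hippocampus library, to 13397 and 13999 cpm in the cortex and cerebellum of m118, and to at most 8518 cpm in any library of the other mice. The library labelled CD hippocampus of m118 thus matched the other libraries of its mouse in haemoglobin, and those had 0.90 and 1.55 cpm of the Tulp4 measure, below every WT library of their region. Genotype values of the hippocampus are given with and without it.

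The mammalian clock is a loop of transcription and translation that runs in nearly every cell. CLOCK and its partner BMAL1 (encoded by Arntl) activate genes through E-box elements, among them the Per and Cry genes, whose proteins return to the nucleus and repress CLOCK and BMAL1. The nuclear receptors encoded by Nr1d1 and Nr1d2 repress Arntl from RORE elements and are themselves E-box targets. The same holds for Ciart, whose product CHRONO is a further repressor. DBP carries the rhythm to output genes through D-box elements. In forebrain and cerebellum most of these genes, though not all to the same extent, cycle over the day. The level of a cycling gene in a tissue sample depends on the hour at which the sample was taken.

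The sequences next to the start of these genes can hold the elements named above. Promoters of 300 bases, from 250 bases before the start to 50 after it (RefSeq, GRCm38.p6), were held for 9 of the 10 genes, with 12 promoters in all; there was no entry for Per2. On either strand, they were searched for the E-box CACGTG, the E'-box CACGTT, the D-box TTATGTAA, its variant TTACGTAA, the RORE half-site AGGTCA and the cAMP response element TGACGTCA. None of the matches overlapped another here. Those shown are the promoter with the most E-boxes (Ciart), the only one of the 12 with D-boxes (Per3), the one that holds an E-box and an E'-box (Cry1), and those of Nr1d1 and Dbp, whose levels come up again in the comparison of mice. Capitals mark E-boxes, E'-boxes and D-boxes.

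Ciart, chr3:95882179-95882478 (- strand): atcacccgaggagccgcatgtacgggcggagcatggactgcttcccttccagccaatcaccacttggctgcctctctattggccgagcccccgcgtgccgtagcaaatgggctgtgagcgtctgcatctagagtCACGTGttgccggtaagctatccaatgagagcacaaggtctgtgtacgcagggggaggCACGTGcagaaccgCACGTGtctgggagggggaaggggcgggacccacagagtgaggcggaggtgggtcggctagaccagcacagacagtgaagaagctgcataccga
Per3, chr4:151044616-151044915 (- strand): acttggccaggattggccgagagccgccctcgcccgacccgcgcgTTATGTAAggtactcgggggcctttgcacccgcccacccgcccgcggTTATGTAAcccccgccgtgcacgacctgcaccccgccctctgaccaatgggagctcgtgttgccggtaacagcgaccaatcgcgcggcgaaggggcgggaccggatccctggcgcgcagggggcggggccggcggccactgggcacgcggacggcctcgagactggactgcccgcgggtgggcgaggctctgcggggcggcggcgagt
Cry1, chr10:85185005-85185304 (- strand): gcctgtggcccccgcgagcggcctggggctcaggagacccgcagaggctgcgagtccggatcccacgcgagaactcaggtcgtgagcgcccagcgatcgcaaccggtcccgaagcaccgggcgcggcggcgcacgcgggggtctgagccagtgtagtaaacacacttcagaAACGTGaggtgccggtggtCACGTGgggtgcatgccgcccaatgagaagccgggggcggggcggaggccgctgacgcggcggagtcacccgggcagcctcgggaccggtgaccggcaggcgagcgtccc
Nr1d1, chr11:98775328-98775627 (- strand): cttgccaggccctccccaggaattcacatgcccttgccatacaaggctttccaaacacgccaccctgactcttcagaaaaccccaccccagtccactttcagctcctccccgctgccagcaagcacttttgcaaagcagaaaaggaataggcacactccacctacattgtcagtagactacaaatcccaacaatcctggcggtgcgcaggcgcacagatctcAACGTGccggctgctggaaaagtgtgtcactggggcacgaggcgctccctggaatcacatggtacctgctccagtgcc
Dbp, chr7:45704997-45705296 (+ strand): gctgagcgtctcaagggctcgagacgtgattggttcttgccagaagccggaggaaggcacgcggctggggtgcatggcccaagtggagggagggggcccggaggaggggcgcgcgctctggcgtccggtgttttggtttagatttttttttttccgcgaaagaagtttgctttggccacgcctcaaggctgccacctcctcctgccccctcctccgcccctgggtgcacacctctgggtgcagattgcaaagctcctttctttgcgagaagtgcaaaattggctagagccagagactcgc

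The E-box was present 3 times in the Ciart promoter, at -116, -58 and -44 bases from the start, and once each in 1 of the 2 Per1 promoters (at -166) and in that of Cry1 (at -60). Thus 3 of 12 promoters (25%), of 3 genes, held an E-box, against 7.15% of 32851 promoters searched. The E'-box was found in Cry1, Cry2 and Nr1d1 (3 of 12 promoters, 4.68% of all promoters), and both D-boxes of Per3 lay at -205 and -158 (1 of 12 promoters, 0.938% of all promoters). The RORE half-site occurred in Per1, Nr1d2 and 1 of the 3 Clock promoters (3 of 12 promoters, 16.3% of all promoters). No cAMP response element and no D-box variant lay in the windows searched (1.79% and 0.119% of all promoters), and the Dbp window held none of the motifs. These are matches of letters in short windows and not measured binding.

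The level of most clock genes differed between the brain regions. Compared with the hippocampus, 8 of the 10 were higher in the cortex at a false discovery rate (FDR) below 0.05, where 18.0% of the 11137 genes tested were higher, and 6 were higher in the cerebellum, where 30.7% of all genes were. Between cortex and cerebellum, 3 were higher in the cerebellum (31.1% of all genes) and 3 lower (30.8%). The median log2 difference over the 10 genes was 0.59 for cortex over hippocampus, 0.49 for cerebellum over hippocampus and -0.01 for cerebellum over cortex, and over all genes it was -0.01, 0.02 and 0.02. In either direction, 8, 6 and 6 clock genes passed in these 3 comparisons, where 35.5%, 61.4% and 61.9% of all genes did. At an unadjusted p below 0.05 the edgeR counts were again 8, 6 and 6, with 43.5%, 64.8% and 65.2% of all genes. The study's own thresholds were stricter, an FDR below 0.01 together with a fold change over 2 (or under 0.5). They called only Cry1 and Nr1d2, both higher in cerebellum than in hippocampus, where 22.8% of all genes were called, 9.76% higher and 13.0% lower. In cortex over hippocampus they called none of the 10 genes, with 8.41% of all genes called, 4.38% higher and 4.03% lower. In cerebellum over cortex they also called none of the 10, with 22.6% of all genes called, 9.7% higher and 12.9% lower. With DESeq2 these counts at an FDR below 0.05 were 8, 6 and 6 as well. All fold changes between regions are edgeR quasi-likelihood estimates averaged over the genotypes, given with their standard error (SE), and the FDR is the Benjamini-Hochberg value over all genes tested.

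**Figure D1:**
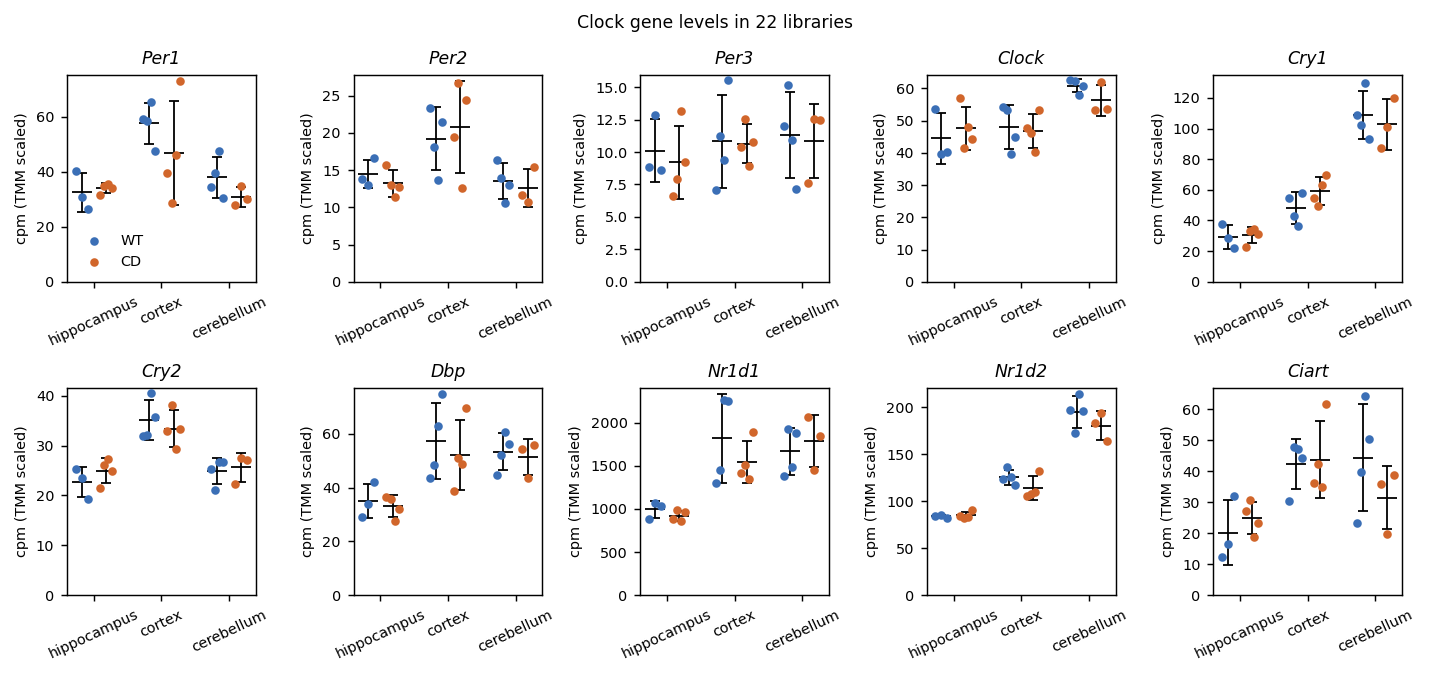
Level of each clock gene (y axis, cpm after TMM scaling, starting at 0) in the hippocampus, cortex and cerebellum (x axis) of WT (blue) and CD (orange) mice; each point is a library and bars give the mean ± SD of a group. Cry1 and Nr1d2 step up from hippocampus to cortex to cerebellum, Per1, Per2 and Cry2 peak in the cortex, and the WT and CD points overlap in all 30 pairs of a gene and a region.

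Clock (chr5:76209868-76305603, minus strand), the DNA-binding activator, was nearly level in the forebrain. It was measured at 39.5 to 56.9 cpm in the hippocampus (median 44.1), 39.7 to 54.1 cpm in the cortex (median 46.9) and 53.3 to 62.6 cpm in the cerebellum (median 60.7). The cerebellar excess was small, with a log2 difference of 0.35 ± 0.10 over the hippocampus (edgeR FDR = 0.00264) and 0.30 ± 0.09 over the cortex (edgeR FDR = 0.0068), and the value for cortex over hippocampus was 0.05 ± 0.09 (edgeR FDR = 0.716). The difference between cerebellum and cortex depended on mouse m190: without it the value was 0.23, with an edgeR FDR of 0.0591.

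Of the period genes, whose products are the labile arm of the repressor complex, Per1 and Per2 were highest in the cortex and Per3 showed no called difference. Per1 (chr11:69095108-69109965, plus strand), which also responds quickly to light and to neuronal activity, lay at 26.5 to 40.3 cpm in the hippocampus (median 34.1), 28.6 to 73.0 cpm in the cortex (median 52.9) and 27.9 to 47.6 cpm in the cerebellum (median 34.5). The cortex exceeded the hippocampus by a log2 value of 0.65 ± 0.15 (edgeR FDR = 0.00105), and the value for cerebellum over cortex was -0.61 ± 0.15 (edgeR FDR = 0.000912). Immediate early genes, which follow neuronal activity, were also higher in the cortex than in the hippocampus. At an FDR below 0.05 this held for 9 of 9 (18.0% of all genes), with a median log2 difference of 1.66. Their part in the Per1 result was not tested. Ranges of Per1 still overlapped between all regions, and the CD cortices of mice m138 and m118 lay within the range of the hippocampus. Per2 (chr1:91415977-91459351, minus strand), a second repressor of this family, was also highest in the cortex, at 11.4 to 16.7 cpm in the hippocampus (median 13.02), 12.6 to 26.7 cpm in the cortex (median 20.4) and 10.6 to 16.4 cpm in the cerebellum (median 13.1). Its log2 difference was 0.54 ± 0.15 for cortex over hippocampus (edgeR FDR = 0.00628) and -0.61 ± 0.15 for cerebellum over cortex (edgeR FDR = 0.00129). Per3 (chr4:150997018-151044707, minus strand), the third of the family, had 26 to 108 counts per library. It spanned 6.58 to 13.1 cpm in the hippocampus, 7.11 to 15.5 cpm in the cortex and 7.12 to 15.2 cpm in the cerebellum, and its 3 regional log2 differences, between 0.08 ± 0.19 and 0.19 ± 0.19, did not pass the test (edgeR FDR = 0.397 to 0.73).

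The cryptochrome genes encode the partners of PER that repress CLOCK and BMAL1. Cry1 (chr10:85131700-85185054, minus strand) showed the largest regional difference of the set. It was at 22.2 to 37.4 cpm in the hippocampus (median 31.4), 36.2 to 69.7 cpm in the cortex (median 54.7) and 87.3 to 129.9 cpm in the cerebellum (median 102), so that every cerebellar library lay above every forebrain library. Cerebellum exceeded hippocampus by 1.82 ± 0.13 on the log2 scale, a 3.53-fold difference (edgeR FDR = 7.47e-12), and cortex by 0.99 ± 0.12, a 1.99-fold difference (edgeR FDR = 1.17e-07). The cortex in turn exceeded the hippocampus by 0.83 ± 0.13 (edgeR FDR = 1.14e-05). Cry2 (chr2:92403646-92434085, minus strand) was highest in the cortex, with 29.3 to 40.5 cpm there (median 33.1) against 19.2 to 27.3 cpm in the hippocampus (median 24.98) and 21.1 to 27.5 cpm in the cerebellum (median 26.6). The cortical libraries did not overlap with either of the other regions. The log2 difference was 0.52 ± 0.09 for cortex over hippocampus (edgeR FDR = 7.75e-05) and -0.43 ± 0.09 for cerebellum over cortex (edgeR FDR = 0.000275), and 0.09 ± 0.10 for cerebellum over hippocampus (edgeR FDR = 0.457).

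Ciart (chr3:95878500-95882257, minus strand), which encodes the repressor CHRONO and carried the 3 E-boxes printed above, varied widely from mouse to mouse. It ranged from 12.2 to 32.0 cpm in the hippocampus (median 23.1), 30.5 to 61.7 cpm in the cortex (median 43.3) and 19.9 to 64.3 cpm in the cerebellum (median 38.7), with a coefficient of variation over libraries of 39.2% in the cerebellum. Cortex and cerebellum exceeded the hippocampus by a log2 value of 0.94 ± 0.21 (edgeR FDR = 0.00105) and 0.74 ± 0.22 (edgeR FDR = 0.0054), and the value for cerebellum over cortex was -0.20 ± 0.21 (edgeR FDR = 0.411). The excess of cerebellum over hippocampus was 0.56 without mouse m240, with an edgeR FDR of 0.0511.

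The nuclear receptor genes were both lowest in the hippocampus. Nr1d1 (chr11:98767932-98775377, minus strand; REV-ERB alpha) was at 858 to 1073 cpm in the hippocampus (median 961), 1297 to 2269 cpm in the cortex (median 1486) and 1384 to 2064 cpm in the cerebellum (median 1849). Every hippocampus was below every other library. The log2 difference from the hippocampus was 0.81 ± 0.12 in the cortex (edgeR FDR = 6.3e-06) and 0.85 ± 0.12 in the cerebellum (edgeR FDR = 1.65e-06), and the value for cerebellum over cortex was 0.04 ± 0.12 (edgeR FDR = 0.764). Its 3′ end overlaps Thra, the thyroid hormone receptor gene on the opposite strand, by 1075 bases. Whether counting used strand is not stated, so reads of the overlap cannot be told apart. Thra itself ran the other way, with 549 to 804 cpm in the hippocampus, 405 to 596 cpm in the cortex and 317 to 403 cpm in the cerebellum. Nr1d2 (chr14:18204056-18239106, minus strand; REV-ERB beta) was at 81.7 to 90.1 cpm in the hippocampus (median 83.8), 106 to 136 cpm in the cortex (median 120.4) and 164.02 to 214 cpm in the cerebellum (median 194), without overlap between any regions. Its coefficient of variation was 3.33% in the hippocampus. Its log2 difference was 0.51 ± 0.07 for cortex over hippocampus (edgeR FDR = 1.64e-06), 1.15 ± 0.07 for cerebellum over hippocampus (2.22-fold, edgeR FDR = 3.15e-13) and 0.65 ± 0.07 for cerebellum over cortex (edgeR FDR = 6.45e-09).

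Dbp (chr7:45705100-45710203, plus strand), the output activator that binds D-boxes, was lowest in the hippocampus as well. It was measured at 27.7 to 41.9 cpm in the hippocampus (median 33.9), 38.6 to 74.8 cpm in the cortex (median 50.04) and 43.7 to 60.7 cpm in the cerebellum (median 54.5). Cortex and cerebellum were above the hippocampus by a log2 value of 0.68 ± 0.13 (edgeR FDR = 0.000147) and 0.62 ± 0.13 (edgeR FDR = 0.000241), and the value for cerebellum over cortex was -0.06 ± 0.13 (edgeR FDR = 0.71). The last 500 bases of Dbp are also exonic for Sphk2 on the opposite strand (65.6 to 142 cpm without TMM scaling), and reads there cannot be told apart either.

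**Figure D2:**
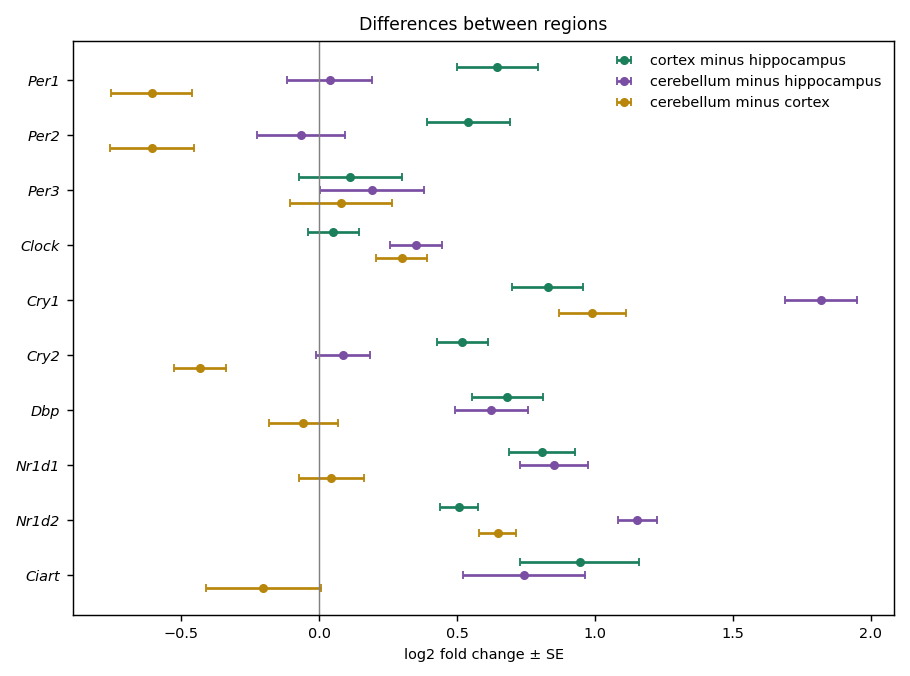
Log2 fold change between regions (x axis, positive when higher in the first-named region of the legend) for each clock gene (y axis), with bars of ± 1 SE from the edgeR fit over 22 libraries. Cry1 and Nr1d2 lie to the right in all 3 comparisons, Per1, Per2 and Cry2 lie left of 0 for cerebellum minus cortex, and Per3 stays within 0.19 of 0.

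The regions also differed in the cells they hold. Counts here are at an FDR below 0.05 against the hippocampus. All 5 oligodendrocyte markers were lower in the cortex (median log2 difference -1.39) and in the cerebellum (-1.28). All 5 microglial markers were lower in the cerebellum (-1.80), and 0 of 5 were called in the cortex. Astrocyte markers were split, with 4 lower and 1 higher in the cortex and 2 lower and 3 higher in the cerebellum. Of 4 endothelial markers tested, 2 were higher in the cortex and 1 in the cerebellum, and none was lower. Of all genes, 17.5% were lower and 18.0% higher in the cortex, and 30.7% lower and 30.7% higher in the cerebellum. In bulk tissue, fewer cells of a type that express a gene and less RNA per cell cannot be told apart, and the part of cell make-up in the clock gene differences was not tested.

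Among the other genes of the loop, some had larger regional differences. Arntl, the partner of Clock, differed by no more than 0.23 ± 0.21 on the log2 scale between regions (edgeR FDR = 0.428), but Npas2, which can stand in for Clock in the forebrain, had a median of 33.7 cpm in the hippocampus, 70.9 cpm in the cortex and 4.71 cpm in the cerebellum. Its log2 difference for cerebellum over cortex was -3.82 ± 0.17 (edgeR FDR = 3.08e-16). Of the ROR receptors that oppose the REV-ERBs, Rora was higher in the cerebellum by 3.07 ± 0.09 over the hippocampus (edgeR FDR = 9.39e-20), and Rorb was highest in the cortex, 1.94 ± 0.21 over the hippocampus (edgeR FDR = 5.22e-08). Among 6 tested genes tied to D- and E-boxes, 3 were higher in the cortex than in the hippocampus (Hlf, Bhlhe40 and Usp2) and none lower, where 18.0% of all genes were higher. In the cerebellum 3 were higher than in the hippocampus (Nfil3, Bhlhe41 and Usp2) and none lower, where 30.7% of all genes were higher, and 2 were higher (Nfil3 and Usp2) and 2 lower (Hlf and Bhlhe40) than in the cortex, against 31.1% and 30.8% of all genes.

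No clock gene was called between CD and WT mice. In each of the 3 regions, and in a fit over the 3 regions together, 0 of the 10 passed the study's thresholds or an FDR below 0.05, where the called share of all genes was 0.0% except for the cortex at an FDR below 0.05 (0.0101%). With edgeR and all libraries, 0 of the 10 had an unadjusted p below 0.05 in any region, against 4.22% (hippocampus), 3.3% (cortex) and 4.55% (cerebellum) of all genes, and DESeq2 likewise called 0 at an FDR below 0.05 in each region. With a single library left out, 0 or 1 of the 10 in the hippocampus, 0 to 2 in the cortex and 0 or 1 in the cerebellum had an unadjusted p below 0.05 in edgeR, and none an FDR below 0.05. With limma over the 3 regions, and mouse as a random block, it was 0 of 10 against 3.58%. WT and CD libraries overlapped for all 10 genes in all 3 regions, while 5.44%, 2.54% and 5.33% of all genes did not overlap. For a genotype effect that differs between regions the counts were also 0, with 0 of 10 at an FDR below 0.05 and 0 of 10 at an unadjusted p below 0.05 in the edgeR interaction test (0.0% and 3.91% of all genes).

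The log2 fold changes of CD over WT ran from -0.14 to 0.31 in the hippocampus, from -0.30 to 0.31 in the cortex and from -0.48 to 0.10 in the cerebellum, and their medians were 0.04, -0.06 and -0.08 while over all genes tested each was within 0.01 of 0. Without the library labelled CD hippocampus of mouse m118 the hippocampal range was -0.21 to 0.28, with 0 of 10 genes called. The highest hippocampal value belonged to Ciart, at 12.2, 16.5 and 32.0 cpm in WT mice m162, m240 and m244 and at 27.1, 30.7, 18.9 and 23.1 cpm in CD mice m118, m138, m190 and m242. The WT value of m244 lay above all CD values and the other WT values lay below them. The log2 fold change was 0.31 ± 0.28, and without m244 it was 0.79 with an unadjusted p below 0.05 (edgeR FDR = 0.98). The largest difference in the cortex belonged to Cry1, at 54.9, 42.7, 36.2 and 58.1 cpm in WT mice m162, m164, m240 and m244 and at 54.6, 49.7, 63.1 and 69.7 cpm in CD mice m118, m138, m190 and m242. The upper WT values reach into the CD range, and the log2 fold change was 0.31 ± 0.16 (edgeR FDR = 0.9998), with an interval of 2 SE on either side from -0.01 to 0.63. It was 0.39 without m138 or m162 and 0.40 without m244, each with an unadjusted p below 0.05 (edgeR FDR = 0.9635 to 0.9996). Per1, in turn, was at 59.1, 58.4, 65.4 and 47.4 cpm in the WT cortices and at 39.5, 28.6, 46.1 and 73.0 cpm in the CD cortices, with the mice in the order just given. Of these, 3 CD values lay below all WT values and 1, of mouse m242, above them, which left a log2 fold change of -0.30 ± 0.22 (edgeR FDR = 0.9998). Without m242 it was -0.61, with an unadjusted p below 0.05 (edgeR FDR = 0.90).

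In the cerebellum, Ciart had 23.2, 39.8, 64.3 and 50.5 cpm in WT mice m162, m164, m240 and m244 and 36.05, 19.9 and 38.7 cpm in CD mice m118, m190 and m242. All CD values lay within the WT range except that of mouse m190, below it. The log2 fold change was -0.48 ± 0.29 (edgeR FDR = 0.981), and its interval of 2 SE either way ran from -1.06 to 0.10. Without WT mouse m162 it was -0.70, with an unadjusted p below 0.05 (edgeR FDR = 0.9993). Over all 3 regions the limits were tighter: the estimates lay between -0.19 ± 0.13 (Per1) and 0.12 ± 0.10 (Cry1), all with a limma FDR of 0.9997, and the outermost bounds of the 10 intervals were -0.44 and 0.38. Per1 is the gene whose interval reached lowest and Ciart the one that reached highest. The fit used 1 mouse correlation for all genes (0.0295). The limits are therefore too narrow for any gene whose regions deviate together within a mouse by more than that. The signs of the smallest estimates turned when single libraries were left out, as given in the closing section.

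**Figure D3:**
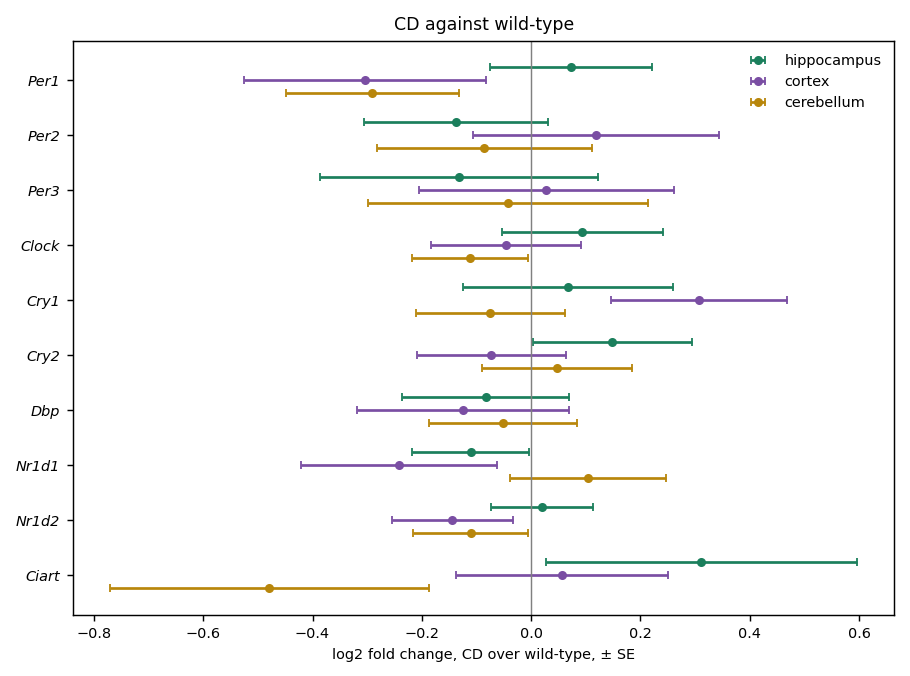
Log2 fold change of CD over WT (x axis) for each clock gene (y axis) in the hippocampus, cortex and cerebellum, with bars of ± 1 SE from the edgeR fit within each region. The estimates lie between -0.48 (Ciart, cerebellum) and 0.31, and none passed the test.

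Of the other activators, ROR receptors, D- and E-box genes, and kinases and ligases, 0 passed an FDR below 0.05 in any region. At an unadjusted p below 0.05 the edgeR test in the cerebellum listed Arntl at -0.69 ± 0.28, Rorb at -0.59 ± 0.21 and Nfil3 at 0.39 ± 0.15, each with an FDR of 0.981, and it listed no gene of these lists in the hippocampus or cortex. In the cerebellum these were 1 of 2 activators, 1 of 2 ROR receptors, 1 of 5 D- and E-box genes and 0 of 5 kinases and ligases tested. Of all genes, 4.55% had such a p there, against 4.22% in the hippocampus and 3.3% in the cortex.

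The next question was whether the regions of a single mouse share a phase, in which case their clock genes should deviate together from the group means. Each gene was tested for 6 mouse terms nested in genotype, on top of the 6 group means, which leaves 10 residual degrees of freedom. Of all genes 11 of 11137 (0.0988%) passed an FDR below 0.05, none of them a clock gene. These 11 were Gabra2, Capn11, Wdfy1, En1, Erdr1, Alas2, Ndn and the haemoglobin genes Hbb-bt, Hba-a1, Hba-a2 and Hbb-bs. At an unadjusted p below 0.05 there were 3 clock genes of 10, Ciart, Dbp and Per2, where 6.07% of all genes lay there. The median F was 1.90 over the clock genes and 0.984 over all genes. Other short lists had a higher share at an unadjusted p below 0.05 and a higher median: 4 of 9 immediate early genes (median F 2.62), 3 of 7 glucocorticoid-responsive genes (2.41), 2 of 5 hippocampal markers (2.26) and 2 of 6 choroid plexus markers (1.97). Of the other clock genes, none of 2 activators (0.84), 2 ROR receptors (1.73), 6 D- and E-box genes (1.36) and 5 kinases and ligases (1.21) had an unadjusted p below 0.05 in this edgeR test. Ciart ranked 71st of 11137 genes with an F of 5.23 (edgeR FDR = 0.422), Dbp had an F of 3.10 (edgeR FDR = 0.766), Per2 2.95 (edgeR FDR = 0.803) and Nr1d1 2.64 (edgeR FDR = 0.819), and Nr1d2, at 0.33, was close to the bottom.

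For Ciart, Dbp and Nr1d1, mice m162 and m190 lay below their group mean in every region. WT mouse m162 had 12.2, 30.5 and 23.2 cpm of Ciart in hippocampus, cortex and cerebellum, and CD mouse m190 had 18.9, 35.0 and 19.9 cpm. WT mouse m244 had 32.0, 44.2 and 50.5 cpm, CD mouse m242 had 23.1, 61.7 and 38.7 cpm, and WT mouse m240 had 16.5, 47.3 and 64.3 cpm. Mice m162 and m190 were thus below the group mean in all 3 regions, mouse m244 was above it in all 3, and mouse m240 was low in the hippocampus and high elsewhere. As a log2 deviation from the mean of its group, Ciart averaged -0.63 in mouse m162, -0.42 in mouse m190, 0.21 in mouse m240, 0.26 in mouse m242 and 0.38 in mouse m244.

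For Dbp the same order held at smaller size, with mean deviations of -0.28 in mouse m162, -0.18 in mouse m190, 0.18 in mouse m242 and 0.25 in mouse m244. Mouse m162 had 29.2, 43.6 and 44.8 cpm of Dbp in hippocampus, cortex and cerebellum and mouse m244 had 41.9, 74.8 and 56.1 cpm. Both low mice were under their group mean in all 3 regions, and they held the lowest and second lowest Dbp levels of the hippocampus and of the cerebellum. For Nr1d1 they held the lowest and second lowest level in every region, with 882, 1297 and 1384 cpm in mouse m162 and 858, 1350 and 1458 cpm in mouse m190. Per2 set other mice apart: mouse m190 was low again, with a mean of -0.36 and levels of 11.4, 12.6 and 10.7 cpm, but mouse m162 was not, at 0.18, and mouse m240 averaged -0.30 with 13.01, 13.7 and 10.6 cpm.

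**Figure D4:**
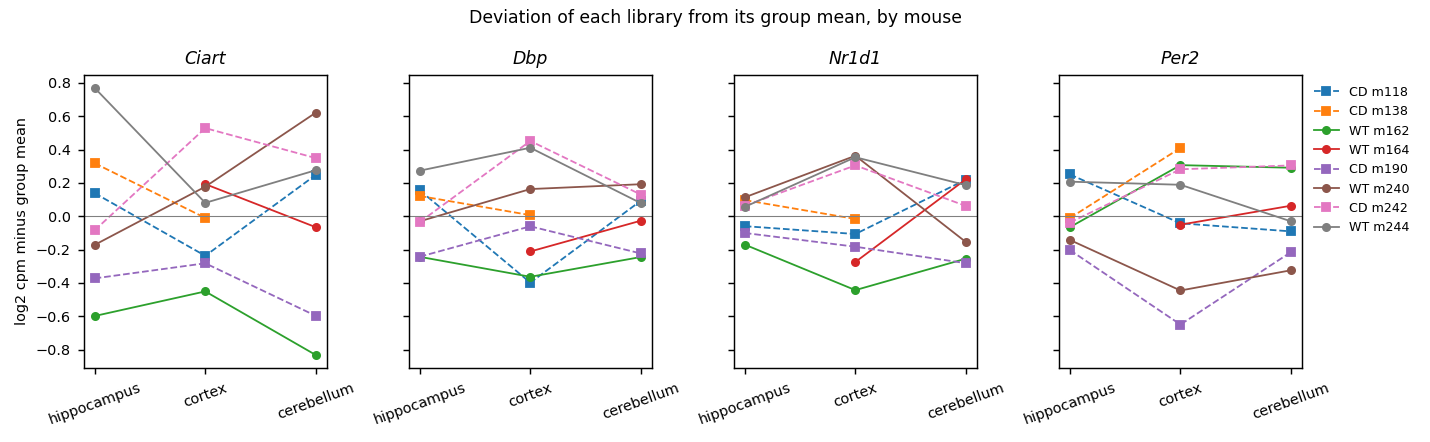
Deviation of log2 cpm from the mean of the library's own region and genotype (y axis) for Ciart, Dbp, Nr1d1 and Per2 in hippocampus, cortex and cerebellum (x axis). Lines join the regions of a mouse, solid with circles for WT and dashed with squares for CD. Mice m162 and m190 run below 0 for Ciart, Dbp and Nr1d1 in all regions, and for Per2 mice m190 and m240 do.

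The count of 3 depended on those mice. Without mouse m162, only Per2 kept an unadjusted p below 0.05 (1 of 10 clock genes), the F of Ciart being 2.22 (edgeR FDR = 0.961), and without mouse m190 only Ciart did (1 of 10, F = 4.25, edgeR FDR = 0.803). Without a filter on low counts, edgeR called 2 of the 10, Ciart (F = 9.10, FDR = 1.9e-07) and Nr1d1 (F = 4.04, FDR = 0.0244), and 6 had an unadjusted p below 0.05, where 2.37% of 22931 genes were called and 7.60% had such a p. Without mouse m118, 4 of the 10 had an unadjusted p below 0.05 (Per2, Dbp, Nr1d1 and Ciart) and edgeR called none. In the hippocampus, choroid plexus markers summed to 10021 cpm in mouse m244 and to 5144 cpm in mouse m190, the mice with the highest and the lowest hippocampal Dbp, and to 397 cpm in mouse m162, which had the lowest hippocampal Ciart. Their part in the result was not tested.

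The levels were then correlated across mice for each pair of regions. Between hippocampus and cortex, 8 of 10 clock genes had a positive Pearson correlation over 7 mice (59.8% of all genes), with a median r of 0.38 against 0.12 for all genes. Between hippocampus and cerebellum it was 8 of 10 over 6 mice (51.8%), with a median of 0.27 against 0.03, and between cortex and cerebellum 6 of 10 over 7 mice (47.4%), with a median of 0.17 against -0.03. By an exact two-sided permutation test, positive r with p below 0.05 was reached by Nr1d1 between hippocampus and cortex and by Per2 between cortex and cerebellum, where 4.15% and 2.28% of all genes did, and by none between hippocampus and cerebellum (2.92%). At an FDR below 0.05 over all genes there were 0 of the 10 in each pair (0.0%, 0.0808% and 0.0% of all genes, in the order given).

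For Nr1d1 between hippocampus and cortex, r was 0.91 and Spearman's rho 0.93 (exact permutation p = 0.00913 and 0.00675, FDR of r = 0.706), and r was 0.85 over the 5 mice left after the 2 farthest from the hippocampal median, m190 and m240, were removed. For Per2 between cortex and cerebellum, r was 0.87 and rho 0.82 (exact permutation p = 0.0123 and 0.0341, FDR of r = 0.99), and r was 0.67 over 5 mice without m190 and m240. Ciart had r of 0.39, 0.39 and 0.64 in the 3 pairs and Dbp 0.37, 0.72 and 0.55, in the order hippocampus and cortex, hippocampus and cerebellum, cortex and cerebellum. Without the 2 mice farthest from the median these became 0.10, -0.22 and 0.80 for Ciart and -0.16, 0.70 and 0.43 for Dbp, so that the hippocampal values of Ciart, and that of Dbp with the cortex, rested on those mice. Nr1d2 had 0.70, -0.70 and -0.36, and 0.155, 0.37 and -0.71 without 2 mice, so its value with the hippocampus fell or turned as well. After centring each genotype on its own mean, Nr1d1 kept an r of 0.87 and Per2 of 0.86, and Nr1d2 between hippocampus and cortex had 0.89.

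Across the 22 libraries, with each value taken from the mean of its group, Ciart, Dbp and Nr1d1 were correlated with each other. Pearson's r was 0.78 for Ciart and Dbp, 0.75 for Dbp and Nr1d1 and 0.54 for Ciart and Nr1d1. Clock was negatively correlated with these genes, at -0.31, -0.32 and -0.45, and Per1 went with Nr1d2 (0.57) and Cry1 (0.49), while Per1 and Per2 had -0.32. The median over the 45 pairs was 0.06, with 27 positive and 18 negative. Libraries of a mouse are not independent and all genes of a library share its depth, so these values are descriptions with no test.

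**Figure D5:**
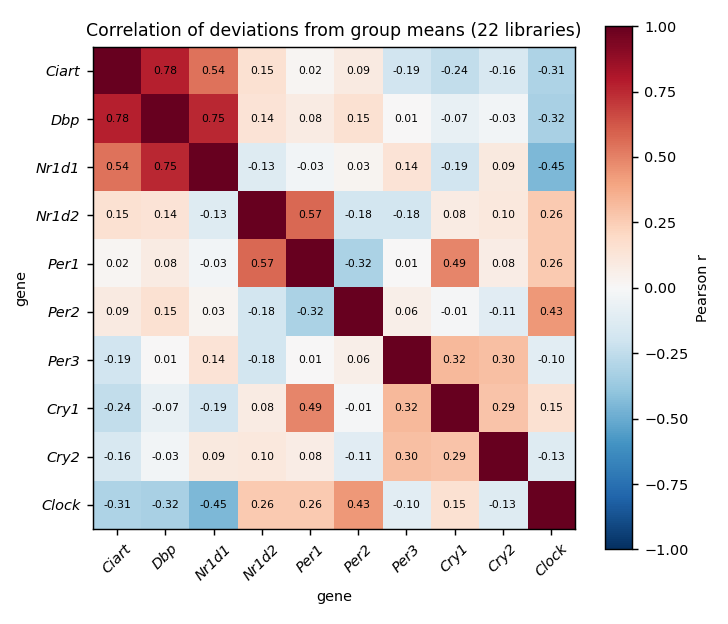
Pearson correlation (colour, from -1 in blue to 1 in red, with the value printed) between the clock genes (both axes) over 22 libraries, after the mean of each region and genotype was taken off log2 cpm. The Ciart, Dbp and Nr1d1 block holds 0.54 to 0.78, and Clock is at -0.31 to -0.45 with these genes.

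A profile was then taken as the mean deviation of 7 of the clock genes (Per1, Per2, Per3, Dbp, Nr1d1, Nr1d2 and Ciart). These genes did not all move together. Over the 22 libraries r was 0.78 for Dbp and Ciart, but -0.32 for Per1 and Per2 and -0.13 for Nr1d1 and Nr1d2. By mouse it averaged -0.16 in mouse m162 and -0.12 in mouse m190, below 0 in all 3 regions of each, as was mouse m118 with -0.06. It averaged 0.17 in mouse m242 and 0.06 in mouse m240, above 0 in all 3 regions of each. Some of these signs rested on values close to 0. The hippocampal value was 0.006 in mouse m242, 0.015 in mouse m240 and -0.006 in mouse m118, whose cerebellar value was -0.016. Mouse m244 averaged 0.08 with mixed signs: its hippocampal value was 0.11, its cortical value 0.18 and its cerebellar value -0.05. Mice m138 and m164, with 2 regions each, averaged 0.02 and 0.03, also with mixed signs. Among the other 11127 genes, those most like this profile over 22 libraries were Fam3a (r = 0.89), Tshz1 (0.82), Bsn (0.81), Meis3 (0.80) and Wdfy1 (0.76), followed by Tmem141, Klhl23, Efcab1, Slc37a4 and Ptrh2 (0.73 to 0.76). Of these, Wdfy1 had itself passed the test for differences shared by the regions of a mouse (F = 19.9, edgeR FDR = 0.00111). Those most opposed were Specc1l (-0.84), Ebag9 (-0.82), Nefh (-0.81), Fezf2 (-0.81) and Dgkg (-0.78). Both sets are the ends of a ranking of 11127 genes over libraries that are not independent. High values are to be found at the ends of such a ranking by selection alone, and no test was run on them. Of the other clock genes, Tef, a D-box activator related to Dbp, was the closest at 0.66 (rank 39 of 11127), followed by Usp2, a deubiquitinase (0.48), and Bhlhe41 (0.43), while Arntl stood at -0.05.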

How the data were processed

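RNA of hippocampus, cortex and cerebellum was profiled by CelSeq2 in 22 libraries of 8 mice. The counts are raw reads per RefSeq transcript as the authors deposited them, made by alignment to mm10 with STAR and counting with the End Sequence Analysis Toolkit. Tool versions, the strand setting and whether the molecular identifiers were collapsed are not given in the sources used here, so counts may include copies of 1 molecule. Of 85964 transcripts, 69288 (80.6%) were matched to 23037 genes by identifier, and the transcript with the highest total stood for its gene. All columns were used. The clock genes and all other lists were chosen with earlier results of these data known.

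Genes that reached 5 cpm in 2 or more libraries were tested with edgeR 4.0.16 in R 4.3.3 (TMM, quasi-likelihood F test, Benjamini-Hochberg FDR), within a region for CD against WT and over 22 libraries otherwise. The genotype effect over all regions used limma 3.58.1 (voom) with mouse as a random block (consensus correlation 0.0295). Mouse numbers in the labels pair the regions, since they come from the same animal, whereas WT and CD groups share no number. The source of replicates is the mouse. DESeq2 1.42.0 was an alternative, as were other size factors, no filter, summed transcripts, mouse as a replicate block and leaving out libraries. Correlations used log2 cpm with a prior count of 2 and exact permutations. Promoter motifs were searched with Python 3.11.15. All 10 clock genes were named in every comparison, and of the other lists up to 4 called genes each by size of change. Some results of the kinase and ligase list are not reported here. The statistics were tested on simulated data.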

Additional observations from a re-analysis of the deposited data

Results flagged for a closer look

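Nr1d2, which encodes the repressor REV-ERB beta, stood apart in 1 library. The cortex of CD mouse m242 had 132.57 cpm, and the other 3 CD cortices had 106 to 110 cpm. The gap to the nearest of them was 0.836 of the range of the group, above the critical value of Dixon's test for 4 samples. Of 40 groups of a clock gene in a region and genotype tested this way, 1 was flagged, and chance gives about 2.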

How the results depend on the processing

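Depth and the number of mice set the limits: Per3 rested on as few as 26 counts in a library, each group held 3 or 4 mice, and intervals of a genotype effect within a region reached from -1.06 to 0.88 on the log2 scale. No alternative gave a clock gene with an FDR below 0.05 between CD and WT. At an unadjusted p below 0.05, leaving out 1 library gave up to 1 clock gene in the hippocampus (Ciart without m244), up to 2 in the cortex (Cry1 without m138 or m244, Cry1 and Nr1d1 without m162, Per1 without m242) and up to 1 in the cerebellum (Ciart without m162, Per1 without m244). Over the 3 regions Per1 was -0.27 without m242 and -0.28 without m244, and with no filter Cry1 in the cortex was 0.32 and Ciart in the cerebellum -0.47, all at such a p. The counts of regional differences at an FDR below 0.05 were 8, 6 and 6 with mouse as a replicate block, as without it.

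The number of clock genes past the study's thresholds went from 0 to 1 for cerebellum over cortex with summed transcripts, and ranged from 0 to 1 with a mouse left out (1 without m118, m162, m190 or m244). For cortex over hippocampus it ranged from 0 to 1 as well (1 without m138 or m244). In the test for shared differences between mice, no filter on low counts gave 2 called clock genes and 6 at an unadjusted p below 0.05, and with a mouse left out the latter ranged from 1 to 4. Centring on genotype means gave 2 clock genes with a positive r and p below 0.05 between hippocampus and cortex. It also turned the r of Clock between hippocampus and cerebellum to 0.15. Ciart over the 3 regions was -0.036 in edgeR without a block, and Per1 in cerebellum over hippocampus was -0.024 with mouse as a replicate block. The cause of these changes was not tested.

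With 1 library or mouse left out, the log2 fold change of CD over WT changed sign for some genes, none of them called. Hippocampal values ranged from -0.051 to 0.25 for Per1, -0.35 to 0.097 for Per3, -0.091 to 0.28 for Cry1, -0.19 to 0.062 for Dbp, -0.0088 to 0.041 for Nr1d2. Cortical values ranged from -0.021 to 0.29 for Per2, -0.15 to 0.22 for Per3, -0.13 to 0.022 for Clock, -0.14 to 0.010 for Cry2, -0.30 to 0.018 for Dbp, -0.16 to 0.15 for Ciart. Cerebellar values ranged from -0.27 to 0.023 for Per2, -0.21 to 0.14 for Per3, -0.21 to 0.027 for Cry1, -0.023 to 0.13 for Cry2, -0.13 to 0.052 for Dbp, -0.013 to 0.23 for Nr1d1. Values over the 3 regions ranged from -0.15 to 0.090 for Per2, -0.096 to 0.096 for Per3, -0.092 to 0.050 for Clock, -0.18 to 0.017 for Dbp, -0.17 to 0.011 for Nr1d1, -0.23 to 0.19 for Ciart. Uncalled regional differences did so too. Those of cortex over hippocampus ranged from -0.034 to 0.26 for Per3, -0.00059 to 0.096 for Clock. Those of cerebellum over hippocampus ranged from -0.044 to 0.15 for Per1. Those of cerebellum over cortex ranged from -0.026 to 0.26 for Per3, -0.041 to 0.13 for Nr1d1.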

Other observations

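Immediate early genes, which neurons switch on upon activity, ran opposite to some clock genes in the cortex, with no correlation at an FDR below 0.05. Their summed level ran from 350 to 792 cpm in the 8 cortices, lowest in WT mouse m240 and highest in CD mouse m190, and from 130 to 189 cpm in the hippocampus. Across the cortices, the correlation of Ciart with the mean log2 level of these genes was r = -0.80 and rho = -0.86 (exact permutation p = 0.0168 and 0.0107), and r was -0.82 without the 2 libraries farthest from the median. For Nr1d1, r was -0.76 and rho -0.81 (exact permutation p = 0.0265 and 0.0218), with -0.76 without 2 libraries. For Cry2, r was -0.77 and rho -0.67 (exact permutation p = 0.0259 and 0.0831), with -0.60 without 2 libraries. All 10 clock genes were examined, after their values had been seen, and the FDR over all genes was 0.809 for each of these 3. Per1 had r of -0.36 and rho of -0.69 (exact permutation p = 0.381 and 0.0694), and Cry1 had a positive r of 0.47 (exact permutation p = 0.244). For the remaining clock genes r ran from -0.67 (Dbp) to -0.09 (Clock). A negative r with an exact permutation p below 0.05 was found for 2.8% of 11128 genes, and a positive one for 3.13%.

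The genes that did pass the test for differences shared by the regions of a mouse were led by Gabra2 (F = 29.2, edgeR FDR = 0.000213) and Capn11 (F = 23.4, edgeR FDR = 0.000635). They also included Hbb-bt (F = 21.4, edgeR FDR = 0.000837) and Alas2, an enzyme of haem synthesis (F = 12.6, edgeR FDR = 0.0164).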
